A study of Mus musculus with 4 samples.

Results

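Granulocyte progenitors were taken as the cells with at least 10 unique molecular identifiers (UMIs, each a captured transcript) of Mpo, Elane, Prtn3 and Ctsg together, among cells in which at most 10% of UMIs came from mitochondrial genes. The members were thus chosen by their raw UMI counts of these 4 genes. The rule took 613 of 59824 cells from 4 libraries of tibial muscle, sequenced as single cells. Of these, 5 were in Uninjured muscle, 269 at 1 day post injury (dpi), 339 at 3 dpi and 0 at 7 dpi. The mice of all 4 groups were C57BL/6, 6 to 8 weeks old, of the genotype Nse-Bmp4, in which the promoter of neuron specific enolase (Nse) drives the bone morphogenetic protein Bmp4, so the Uninjured group carried the transgene as well. The injury was an injection of cardiotoxin, a venom toxin that destroys myofibres, and tissue was released with collagenase. A library held cells from a pool of 3 muscles, and each time point had 1 library, so that time point and library cannot be told apart and no test between time points was made. The libraries held 112317902 UMIs in 12031 barcodes (Uninjured), 91146335 in 11722 (1 dpi), 116346301 in 15160 (3 dpi) and 129007669 in 23752 (7 dpi), without scaling per cell. Pairs of libraries shared 30 to 95 cell barcodes, and none of these was a progenitor in both.

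In the bone marrow, granulocytes and monocytes arise from shared myeloid progenitors. The azurophil (primary) granules are filled first, with myeloperoxidase (Mpo), which makes hypochlorous acid, and with the serine proteases neutrophil elastase (Elane), proteinase 3 (Prtn3) and cathepsin G (Ctsg). These genes are then shut down, the specific (secondary) granules are filled with lactoferrin (Ltf) and the cathelicidin Camp, and division stops. The transcription factors PU.1 (Spi1), C/EBP alpha (Cebpa) and Gfi1 act early in this line, C/EBP epsilon (Cebpe) goes with the specific granules, and Irf8 and Klf4 act on the monocyte side.

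The 3 protease genes of the rule lie in 2 clusters of serine protease genes, and Mpo lies on another chromosome. The genes around Mpo were not examined. In mouse GRCm38 with GENCODE M21, Prtn3 is at chr10:79874476-79883174 and Elane at chr10:79886247-79888215, 3.07 kb apart on the same strand. Ctsg is at chr14:56099881-56102574 on the minus strand and Mpo at chr11:87793581-87804413. The stretches before their starts are shown because the 4 genes were on together in most progenitors. All 4 rule genes matched an entry. Each sequence is RefSeq (GRCm38.p6), 5′ to 3′ on the strand of its gene, and ends where the first GENCODE exon in the 250 bases before the RefSeq start begins (for Ctsg, at that start), so no UTR is printed and the stretch of Mpo is short. That of Prtn3 lies in an intron of the longest GENCODE model of the gene. Capitals mark matches on either strand to GAGGAA (PU.1), TTNNGCAA (C/EBP), CAACNG (MYB) or TGTGGT (RUNX), of which no 2 matches overlapped here.
Mpo, chr11:87793534-87793580, plus strand: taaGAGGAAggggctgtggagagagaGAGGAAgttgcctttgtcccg
Elane, chr10:79886067-79886246, plus strand: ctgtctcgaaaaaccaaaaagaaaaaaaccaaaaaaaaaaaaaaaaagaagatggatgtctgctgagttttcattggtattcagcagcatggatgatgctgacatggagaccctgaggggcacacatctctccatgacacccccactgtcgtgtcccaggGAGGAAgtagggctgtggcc
Prtn3, chr10:79879434-79879613, plus strand: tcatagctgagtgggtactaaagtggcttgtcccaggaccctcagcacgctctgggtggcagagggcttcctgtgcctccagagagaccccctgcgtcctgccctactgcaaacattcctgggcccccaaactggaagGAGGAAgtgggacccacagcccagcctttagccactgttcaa
Ctsg, chr14:56102575-56102754, minus strand: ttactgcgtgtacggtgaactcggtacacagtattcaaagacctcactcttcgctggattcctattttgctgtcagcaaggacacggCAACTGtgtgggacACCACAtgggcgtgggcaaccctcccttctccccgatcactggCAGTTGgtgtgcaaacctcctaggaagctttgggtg

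GAGGAA occurred 2 times before Mpo and 1 time each before Elane and Prtn3, and it was not in the window of Ctsg. Of 32851 RefSeq promoters, 17.1% held GAGGAA in the last 180 bases before the start and 4.90% in the last 47, the lengths of these stretches. The printed stretches end 203 (Mpo), 65 (Elane), 53 (Prtn3) and 0 (Ctsg) bases before the RefSeq start. For Mpo, Elane and Prtn3 the shares thus match in length and not in position. The window of Ctsg held CAACNG 2 times and TGTGGT 1 time, motifs found in 22.5% and 10.1% of promoters over 180 bases. TTNNGCAA, in 6.68% of promoters at that length and 1.26% over 47 bases, matched in none of the 4. Over 47 bases, CAACNG was in 6.37% and TGTGGT in 2.30% of promoters. A match is a run of letters and not a bound site.

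Besides the rule genes Elane and Prtn3, the protein-coding genes within 200 kb of Elane that were above 100 CPM (UMIs per 1000000 of all UMIs in the class and library, a level that is not divided by gene length) in the progenitors of both libraries were Prss57, Bsg, Ptbp1, Cnn2 and Gpx4. Cfd, the complement factor D gene, starts 2.64 kb after Elane and had 3 UMIs at 1 dpi and 4 at 3 dpi in all progenitors. Prss57, the gene of a further azurophil granule protease 95.3 kb before Elane, was at 198 CPM at 1 dpi and 203 CPM at 3 dpi. Around Ctsg, 8 of 16 protein-coding genes had no UMI in the progenitors of 1 dpi and 3 dpi, and besides the rule gene Ctsg only Mcpt8, a basophil protease gene 14.6 kb away, was above 100 CPM in both. The mast cell chymase genes Cma1 and Mcpt4 in the same cluster were at 1.16 and 0.145 CPM at 1 dpi and at 86.9 and 80.9 CPM at 3 dpi. At 3 dpi the 410 UMIs of Cma1 came from 6 of 339 cells.

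The values of the rule genes are given as a description, since they chose the cells. Mpo was at 3386 CPM in Uninjured, 5073 at 1 dpi and 4634 at 3 dpi, Elane at 5797, 5573 and 5796 CPM, Prtn3 at 5753, 5680 and 6023 CPM, and Ctsg at 3191, 1774 and 2139 CPM. The rule genes summed to 18127, 18100 and 18592 CPM. All 4 genes were detected in 202 of 269 cells at 1 dpi and in 277 of 339 at 3 dpi, and a single gene carried the rule in 3 cells and 1 cell. The highest of the 4 was Mpo in 95 cells at 1 dpi, Elane in 88, Prtn3 in 75 and Ctsg in 11, and the order at 3 dpi was Prtn3 in 120, Mpo in 117, Elane in 97 and Ctsg in 5.

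The rule cut a sparse region. The median cell held 330 rule UMIs at 1 dpi and 176 at 3 dpi, with ranges of 10 to 1757 and 10 to 1273, and 183 and 208 cells held 100 or more. Just outside the threshold, 8 cells at 1 dpi and 7 at 3 dpi held 8 or 9 rule UMIs, and just inside it 11 and 4 cells held 10 or 11. At 1 dpi, Ms4a3 was at 179 CPM just outside, 210 CPM just inside and 867 CPM in cells with 100 or more. At 3 dpi it was at 214 CPM in the 7 cells just outside, 20.2 CPM in the 4 just inside and 987 CPM in cells with 100 or more. S100a8 and S100a9 together were at 132847, 104886 and 33970 CPM in the same order at 1 dpi. At 3 dpi they were at 48870, 40.3 and 21971 CPM. The progenitors held 98.2% of all rule UMIs of the 1 dpi library and 98.0% at 3 dpi, and the cells below the threshold averaged 27.6 and 16.0 CPM of rule genes. At 7 dpi the 395 rule UMIs of the whole library, 181 of Mpo and 201 of Prtn3 against 2 of Elane and 11 of Ctsg, lay at most 4 to a cell, and 1 UMI of Ms4a3 was found in 23026 cells.

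Ms4a3, a membrane protein gene of granulocyte and monocyte progenitors that the rule did not use, was checked next. It was found in 4 of 5 progenitors in Uninjured, in 83.6% at 1 dpi and in 84.1% at 3 dpi, at 1046, 699 and 782 CPM. In immature neutrophils it was at 15.7, 59.9, 79.5 and 3.31 CPM in Uninjured, 1 dpi, 3 dpi and 7 dpi, in mature neutrophils at 0, 2.10, 0 and 0 CPM and in classical monocytes at 0, 1.29, 0.996 and 0 CPM, so that no library of these 3 classes reached the progenitors. These classes were gated on other genes among cells outside the rule. Immature neutrophils had Camp, Ngp and Ltf at 10 UMIs or more with S100a8 and S100a9, mature neutrophils had Cxcr2, Il1r2, Clec4d and Mmp9, and classical monocytes had Ly6c2 with Ccr2 or Csf1r.

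Progenitors were large in RNA. Their median UMI count was 25281 at 1 dpi and 13350 at 3 dpi, against 7385 and 3742 in immature neutrophils, 2932 and 1575 in mature neutrophils and 8988 and 5238 in monocytes. At 1 dpi 197 of the 269 lay within 2 SD of the library mean of log10 UMIs and genes, and 333 of the 339 at 3 dpi, so a limit on UMIs removed mainly 1 dpi cells. The 7.5% of cells with the highest doublet scores of each library held 53 progenitors at 1 dpi and 53 at 3 dpi. The part of depth and of doublets in the levels below was not tested apart from leaving these cells out.

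Progenitors made up 0.0423% of cells in Uninjured (95% Clopper-Pearson interval 0.0137 to 0.0986%), 2.48% at 1 dpi (2.19 to 2.79%), 2.40% at 3 dpi (2.15 to 2.67%) and 0 of 23026 cells at 7 dpi, which allows a share of up to 0.0130% by the limit of 3 counts and 0.0160% by the Clopper-Pearson interval. The intervals cover counting error only. The shares at 1 dpi and 3 dpi lay within each other's intervals, while mature neutrophils went from 2.12% to 0.942% and monocytes from 6.62% to 1.19%. Of all granulocytic cells counted here, progenitors were 5.68% in Uninjured, 32.5% at 1 dpi (29.3 to 35.8%), 47.5% at 3 dpi (43.8 to 51.3%) and 0% at 7 dpi, where 57 cells met the gate of immature and 98 that of mature neutrophils. Those 7 dpi cells also held UMIs of genes of other cell types, and the source of these UMIs was not tested. Mesenchymal genes summed to 34611 CPM in the former, with 10 UMIs or more in 51 of 57, and to 20006 CPM in the latter, and cartilage genes to 3383 and 2463 CPM. Specific granule genes were at 19639 CPM in the former, with 63.9% of them in 5 cells. Without the 7 dpi library the tests below called 2346 genes higher and 2543 lower than in mature neutrophils, 1926 and 1690 against monocytes and 1749 and 1932 against immature neutrophils.

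**Figure D1:**
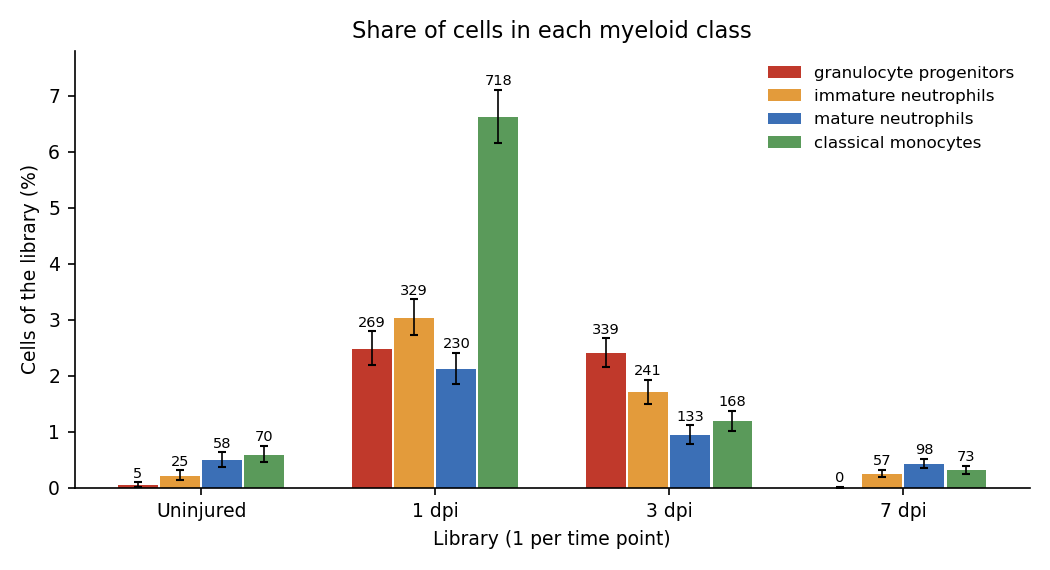
Percent of the cells of each library (y axis) in 4 myeloid classes, with exact 95% intervals as error bars and the number of cells above each bar. Progenitors stand at 2.48% and 2.40% at 1 dpi and 3 dpi and are nearly absent in the 2 outer libraries, while the shares of the other classes are lower at 3 dpi than at 1 dpi.

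Other cell types that normally form in marrow followed the same libraries. B cell progenitors numbered 1, 60, 20 and 1 in Uninjured, 1 dpi, 3 dpi and 7 dpi, erythroblasts 2, 46, 20 and 1, and megakaryocytes 24, 165, 96 and 20. All 3 were most numerous at 1 dpi and next at 3 dpi, as were immature neutrophils with 25, 329, 241 and 57 cells. Whether progenitors share a source with these cells was not tested.

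In Uninjured only 5 cells met the rule, with 30, 1107, 199, 46 and 663 rule UMIs. The cell with 1107 held 76 UMIs of Ms4a3 and 613 of Camp, Ngp and Ltf. The cell with 46 had 44 of them from Ctsg, 105 UMIs of basophil and mast cell genes and no mitosis UMI, and it was among the cells with the highest doublet scores. The cell with 1107 held more rule UMIs than the other 4 together, so levels given for Uninjured progenitors rest on few cells. Their sum entered the tests only in an alternative that takes sums from 5 cells or more.

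Against mature neutrophils, progenitors carried the machinery of division and ribosome assembly and little of the inflammatory and interferon programmes. Sums of UMIs per class and library were compared with edgeR's quasi-likelihood test, with library as a block and p-values adjusted by Benjamini-Hochberg over all genes, from 14 sums of which 2 were of progenitors (1 dpi and 3 dpi). Outside the 19 gate genes, 2029 of 9562 genes (21.2%) were higher in progenitors and 2227 (23.3%) lower, at an adjusted p under 0.05. Because the rule sorted these same cells, any gene that goes with the rule genes had to differ, so the counts describe the sorted cells and do not support their name. Without the 1 dpi library, which leaves 1 sum of progenitors, 295 genes were called higher and 649 lower, and without 3 dpi 474 and 841. With no block for library the counts were 1229 and 1251. The sums have no biological replicate within a time point. With library as a block, each p measures how differences between classes vary from library to library. That spread is pooled over all classes in the fit and rests little on the 2 progenitor sums.

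Of the 13 progenitor markers 11 passed the filter on low counts, and Adgrg1, Cdk6, Flt3, Gata2, Hoxa9, Kit, Ms4a3, Myb and Sox4 were higher than in mature neutrophils. Some of them, such as Ms4a3 at 0, 2.10, 0 and 0 CPM in mature neutrophils, pass that filter through the progenitors, so the calls are given as names and not as a count in support. Myb, which keeps blood progenitors dividing, was at 269 CPM at 1 dpi and 247 CPM at 3 dpi against 0, 12.6, 2.86 and 0 CPM in mature neutrophils from Uninjured to 7 dpi, a log2 fold of 4.64 ± 0.63 (SE, adjusted p = 7.80e-05 by edgeR). Kit, the stem cell factor receptor, was at 67.6 and 59.3 CPM against 0, 6.31, 0 and 0 CPM (3.71 ± 0.69, adjusted p = 0.00188 by edgeR). The groups did not overlap for either gene, and Kit did not pass without the 3 dpi library (log2 fold 3.13). Cd34, a sialomucin of blood stem cells and of vessels and stroma, was at 129 and 121 CPM against 129, 138, 206 and 96.0 CPM, with groups that overlapped and a log2 fold of -0.40 ± 0.48.

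All 12 nucleolar genes tested were higher than in mature neutrophils, with a median log2 fold of 1.80, and 15 of 18 DNA replication genes and 19 of 20 mitosis genes were higher, with medians of 2.10 and 2.89. Npm1, which assembles ribosomes in the nucleolus, was at 1532 and 1710 CPM against 210 to 962 CPM (log2 fold 1.83 ± 0.37, adjusted p = 0.00144 by edgeR). Of the 12 genes of folding in the endoplasmic reticulum 4 were higher, beside 21.2% of all genes. They were led by the chaperone Calr at 1230 and 1477 CPM against 221 to 798 CPM (log2 fold 1.40 ± 0.39, adjusted p = 0.00958 by edgeR). Calr did not pass without 1 dpi (1.26), without 3 dpi (1.45) or with no block (1.44), nor did Npm1 without 1 dpi (1.51). Hspa5, the main chaperone of that compartment, stood at 1155 and 1322 CPM against 710 to 816 CPM and did not pass the test (log2 fold 0.49 ± 0.29).

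On the other side, 9 of 10 interferon genes, 9 of 10 inflammatory genes, 7 of 8 immediate early genes and 7 of 8 homing receptor genes were lower in progenitors than in mature neutrophils, with none higher. Il1b, the interleukin 1 beta gene, was at 40.4 and 31.8 CPM against 10622, 9313, 6643 and 3637 CPM from Uninjured to 7 dpi (log2 fold -8.02 ± 0.58, adjusted p = 2.75e-07 by edgeR). Csf3r, the receptor for granulocyte colony-stimulating factor, was at 73.2 and 66.5 CPM against 738 to 1405 CPM (-4.43 ± 0.42). Cxcr4, the receptor that retains cells in marrow, was at 107 and 68.9 CPM against 124 to 296 CPM (-1.56 ± 0.35). The groups did not overlap for any of these 3 genes, and Cxcr4 did not pass without 3 dpi (-1.72) or with no block (-1.34).

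Of the other lists, 4 of 6 heat shock genes were higher than in mature neutrophils and 4 of 4 tested mature neutrophil genes were lower. Since mature neutrophils were gated on genes of that kind, genes that go with the gate had to be higher in them. The count of mature neutrophil genes thus describes the gate. Of 9 growth factor receptors tested, Flt3 and Kit were higher and Csf2rb, Csf2rb2, Csf3r and Il6ra lower. Of 8 granulocyte transcription factors, Cebpa, Cebpe and Gfi1 were higher and Cebpb and Cebpd lower. Over all genes 21.2% were higher and 23.3% lower in this comparison, shares near those of the receptors called higher and of the granulocyte factors called lower. All 6 mesenchymal genes were lower, against mature neutrophil sums that held the list at 6602, 6024, 10378 and 20006 CPM from Uninjured to 7 dpi, 93.1% of it in 5 cells in Uninjured. The part of other cells' RNA in these calls was not tested. The filter on low counts left 5 of 7 basophil and mast cell genes, 1 of 5 eosinophil genes and 3 of 9 erythroid genes, of which Cpa3, Mcpt8, Ms4a2, Prss34, Prg2 and Car2 were called higher. Genes near 0 in mature neutrophils pass that filter through the progenitors in which they are high, so these calls are given as names and not as counts in support. None of the 3 cartilage, 3 skeletal muscle, 1 endothelial and 1 megakaryocyte genes tested passed, and Ebf1 (B cell progenitor), Tcf4 (plasmacytoid dendritic) and Adgre1 (macrophage) were lower.

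Of the genes named for their fold, Kcnk12, a potassium channel gene, was at 29.1 and 27.5 CPM in progenitors and the transcription factor gene Tfec at 34.4 and 37.1 CPM, both with 0 UMIs in every mature neutrophil sum, so that their place in the order rests on those zeros. Fcnb, the ficolin of early granules, was at 630 and 508 CPM against 0, 2.10, 0 and 0 CPM. Genes of the opposite pattern were Asprv1, an aspartic protease, at 0.290 and 0.636 CPM in progenitors against 237 to 550 CPM, and Fpr1, the formyl peptide receptor, at 1.16 and 0 CPM against 58.1 to 313 CPM. Kcnk12 and Tfec did not pass without 1 dpi.

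Against classical monocytes, 1568 of 9562 genes (16.4%) were higher in progenitors and 1425 (14.9%) lower. Without 1 dpi the counts were 189 and 505, and without 3 dpi 214 and 463. With no block they were 810 and 765, and without the highest doublet scores 954 were higher. All 18 DNA replication genes were higher, as were 16 of 20 mitosis genes and 10 of 12 nucleolar genes. All 10 interferon genes, all 10 inflammatory genes and all 5 genes of MHC class II were lower. Mcm5, part of the helicase that opens DNA for copying, was at 181 and 153 CPM against 10.4, 22.0, 31.9 and 11.9 CPM in monocytes from Uninjured to 7 dpi (log2 fold 2.61 ± 0.45, adjusted p = 0.000532 by edgeR). It did not pass without 1 dpi (2.03) or without 3 dpi (2.63).

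Of 8 granulocyte transcription factors, Cebpe, Gfi1 and Myc were higher than in monocytes and Cebpb was lower, with a list median log2 fold of -0.28 beside 0.11 over all genes. Over all genes 16.4% were higher and 14.9% lower in this comparison, the latter near the share of these factors called lower. Of 4 monocyte transcription factors Klf4, Zeb2 and Nr4a1 were lower. Cebpb was at 205 and 142 CPM against 796 to 2859 CPM (log2 fold -2.92 ± 0.38, adjusted p = 6.21e-05 by edgeR). Cebpe was at 194 and 200 CPM in progenitors against 0, 3.59, 0 and 0 CPM in monocytes, and Gfi1 at 67.6 and 59.5 CPM against 0, 2.30, 1.99 and 0 CPM. Klf4 was at 128 and 112 CPM against 895, 640, 554 and 690 CPM (log2 fold -2.13 ± 0.44, adjusted p = 0.00207 by edgeR) and Zeb2 at 206 and 172 CPM against 504 to 890 CPM (-1.76 ± 0.37). Klf4 did not pass without 3 dpi (-2.23), nor Zeb2 without 1 dpi (-1.74) or without 3 dpi (-1.80). Irf8 did not pass, at 176 and 141 CPM against 175 to 358 CPM (-0.75 ± 0.66), nor did Spi1 and Cebpa. Prss57 was at 198 and 203 CPM in progenitors against 0, 0.287, 0 and 0 CPM in monocytes, and Ctsc, the protease that activates the granule serine proteases, was lower at 46.1 and 38.6 CPM against 317 to 610 CPM (-3.41 ± 0.50, adjusted p = 0.000168 by edgeR).

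Immature neutrophils had higher levels of specific granule genes than progenitors and lower levels of nucleolar and replication genes, while no mitosis gene passed the test. In this comparison 1460 genes (15.3%) were higher in progenitors and 1472 (15.4%) lower. Without 1 dpi the counts were 62 and 170, and without 3 dpi 161 and 247. With no block they were 407 and 338, without the highest doublet scores 961 were higher, and with these 2 classes alone in the fit 3072 were lower. All 12 nucleolar genes, 13 of 18 replication genes and 7 of 12 folding genes were higher, whereas 0 of 20 mitosis genes passed in either direction (median log2 fold -0.09). Of 5 tested monocyte genes 4 were higher as well (Cx3cr1, F13a1, Ly86 and Ms4a6c), as was Irf8, and against mature neutrophils Cx3cr1, F13a1 and Ly86 were higher and Ctss lower. Cx3cr1, the fractalkine receptor gene of monocytes, was at 15.4 and 9.96 CPM against 0, 1.92, 0.680 and 3.31 CPM in immature neutrophils (log2 fold 3.04 ± 0.52, adjusted p = 0.000836 by edgeR). Ly86 and Ms4a6c did not pass without 1 dpi (1.20 and 1.74) or without 3 dpi (1.42 and 2.57), nor did Irf8 (1.63 and 2.02), which DESeq2 did not call either. Against classical monocytes no monocyte gene was higher and 4 of 5 were lower. Those cells were gated on monocyte genes, so this count describes the gate.

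Genes of other lineages differed from immature neutrophils in both directions. Higher in progenitors were Cma1, Cpa3, Mcpt8, Ms4a2 and Prss34 of the basophil and mast cell list, Prg2, Car2, Hbb-bs, Egfl7, Myog and Nkg7. Lower were 5 of 6 mesenchymal genes (Col1a1, Col1a2, Col3a1, Pdgfra and Prrx1), Pf4, Ebf1 and Cd3d. With no block none of these lower genes passed, nor did Cma1, Car2, Hbb-bs, Egfl7 and Myog. Without the highest doublet scores the log2 fold of Hbb-bs turned from 4.89 to -1.13, and without 3 dpi it was 0.25 and did not pass. In the immature neutrophil sums Ms4a2 had 0 UMIs, Mcpt8 and Cpa3 1 each, Prg2 3 and Prss34 4, so these genes passed the filter through the progenitors. Mcpt8 was at 372 and 105 CPM in progenitors against 0, 0.320, 0 and 0 CPM. The progenitor markers Adgrg1, Cd93, Cdk6, Flt3, Gata2, Hoxa9, Kit, Ms4a3, Myb and Sox4 were higher as well. Gata2 was at 54.9 CPM at 1 dpi in all progenitors and at 548 CPM in the 29 with basophil and mast cell genes.

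The mitosis list summed to 2435 and 2251 CPM in progenitors and to 539, 2500, 2745 and 582 CPM in immature neutrophils. At 1 dpi 87.0% of progenitors (82.4 to 90.8%) thinned to 2000 UMIs held a mitosis UMI, against 31.1% of immature neutrophils (26.0 to 36.5%), and at 3 dpi 85.8% (81.6 to 89.4%) against 52.4% (45.0 to 59.7%). Unthinned, the shares were 98.9% and 96.8% of progenitors and 40.4% and 54.8% of immature neutrophils. A larger share of progenitors thus held mitosis UMIs in both libraries.

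In mature neutrophils, which do not divide, 17.1% of 193 cells deep enough at 1 dpi and 18.6% of 43 at 3 dpi held a mitosis UMI after thinning, and 11.4% and 24.7% of monocytes. Thinning left out 37 and 90 mature neutrophils, 14 and 54 immature neutrophils and 0 and 8 progenitors. The median UMI counts before thinning are given above.

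Specific granule genes separated the 2 classes in the other direction, with 5 of 6 tested genes lower in progenitors. Since immature neutrophils were gated on Camp, Ngp and Ltf, genes that go with these had to be higher in them, and the count describes the gate. Lcn2, lipocalin 2, was at 1091 and 655 CPM against 12332, 11169, 8455 and 2573 CPM in immature neutrophils (log2 fold -3.96 ± 0.50, adjusted p = 0.000111 by edgeR), and Cd177 at 111 and 62.5 CPM against 122 to 1236 CPM (-3.73 ± 0.62, not passed with no block at -3.25). The groups overlapped for neither gene. Fcnb did not pass, at 630 and 508 CPM against 126, 486, 349 and 43.0 CPM (0.31 ± 0.38). Ms4a3 was higher in progenitors with a log2 fold of 3.25 ± 0.31 (adjusted p = 9.64e-06 by edgeR), Cebpa at 60.7 and 40.9 CPM against 7.48 to 9.92 CPM (2.47 ± 0.29) and Cdk6, a kinase of early cycling progenitors, at 401 and 351 CPM against 3.94 to 36.4 CPM (3.43 ± 0.33). Cebpe, at 194 and 200 CPM against 217, 373, 310 and 56.2 CPM, did not pass (-1.01 ± 0.40).

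**Figure D2:**
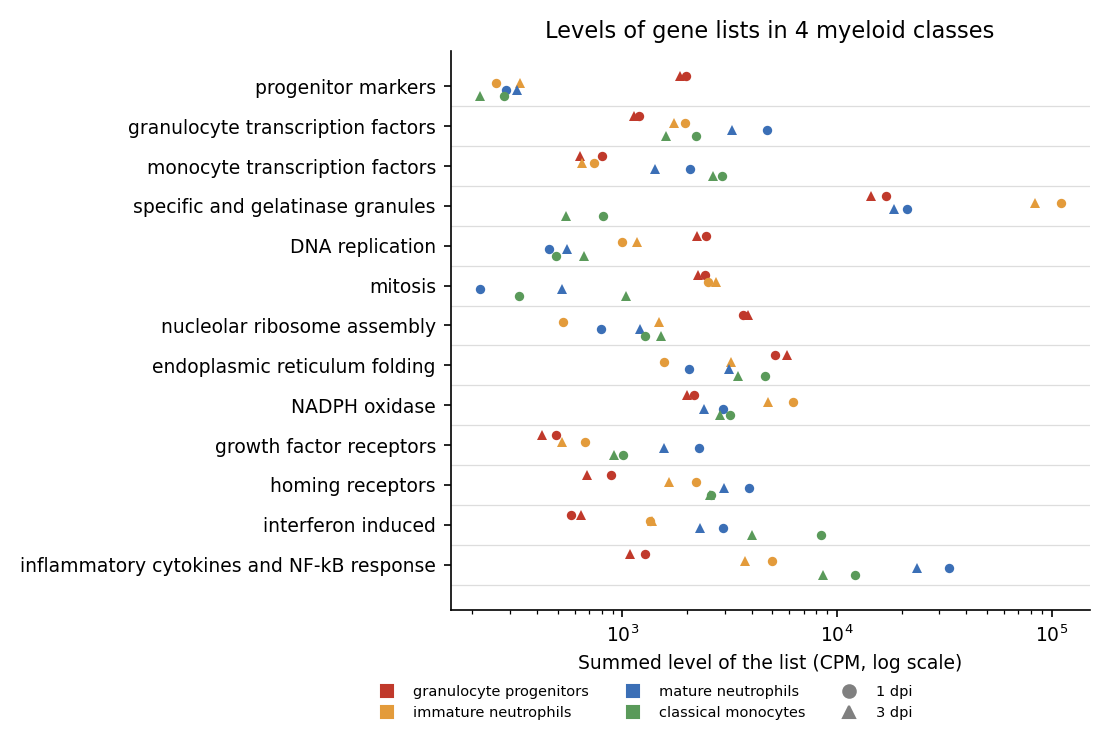
Summed level in CPM (x axis, log scale) of 13 gene lists (y axis) in 4 myeloid classes at 1 dpi (circles) and 3 dpi (triangles), 1 library each. Progenitors are the highest class for progenitor markers, DNA replication, nucleolar and folding genes and the lowest for interferon, inflammatory and homing receptor genes, and the mitosis list is at 2251 to 2745 CPM in progenitors and immature neutrophils alike.

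Of 9 growth factor receptors tested against immature neutrophils, Flt3 and Kit were higher and Csf3r lower, shares near the 15.3% and 15.4% of all genes. Flt3, the FLT3 ligand receptor of early progenitors, was at 23.8 and 15.5 CPM against 1.28 to 7.87 CPM (log2 fold 2.16 ± 0.60, adjusted p = 0.0157 by edgeR), and Kit at 67.6 and 59.3 CPM against 0 to 20.2 CPM (1.69 ± 0.47, adjusted p = 0.0213 by edgeR). Neither passed without 1 dpi (0.65 and 1.98), without 3 dpi (2.98 and 1.43) or with no block (2.08 and 2.19), and Flt3 was also not called with the rule threshold of 20 UMIs (1.81) nor Kit without the highest doublet scores (1.49).

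Of 10 growth factor receptor genes, Csf2ra led with 133 CPM at 1 dpi and 117 CPM at 3 dpi, and the list summed to 489 and 423 CPM. Il6ra, the interleukin 6 receptor, was at 44.2 and 40.7 CPM, and Il3ra at 28.6 and 24.4 CPM. Itga4, the alpha 4 integrin, was higher than in immature neutrophils, at 95.1 and 84.7 CPM against 3.94 to 30.6 CPM (log2 fold 1.78 ± 0.37, adjusted p = 0.00295 by edgeR), and Itgam, the alpha chain of Mac-1, was lower, at 123 and 98.3 CPM against 76.1 to 749 CPM (-2.44 ± 0.51, adjusted p = 0.00330 by edgeR). The groups overlapped for Itgam, and neither gene passed without 1 dpi (1.82 and -2.24) or without 3 dpi (1.97 and -2.59).

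Granule and monocyte genes differed between single progenitors. Each was thinned to 2000 UMIs and placed in a range by at least 3 UMIs of Camp, Ngp, Ltf, Lcn2, Cd177 and Chil3 (granule genes) and by at least 3 UMIs of Ly6c2, Ccr2, F13a1, Csf1r, Ly86 and Ms4a6c (monocyte genes), which is a cut through scores and not a cell type. At 1 dpi 95 of 269 cells (35.3%) had neither, 90 (33.5%) the monocyte genes only, 45 (16.7%) the granule genes only and 39 (14.5%) both. At 3 dpi 112 of 331 (33.8%) had neither, 108 (32.6%) monocyte genes only, 46 (13.9%) granule genes only and 65 (19.6%) both, with 8 shallower cells left out. Cells within 1 UMI of a threshold numbered 73 at 1 dpi and 99 at 3 dpi. The shares follow the threshold: over both libraries, 34.5% had neither, 33.0% monocyte genes only, 15.2% granule genes only and 17.3% both at 3 UMIs, against 55.0%, 16.2%, 25.5% and 3.33% at 6 UMIs, where the order of the middle 2 is turned.

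**Figure D3:**
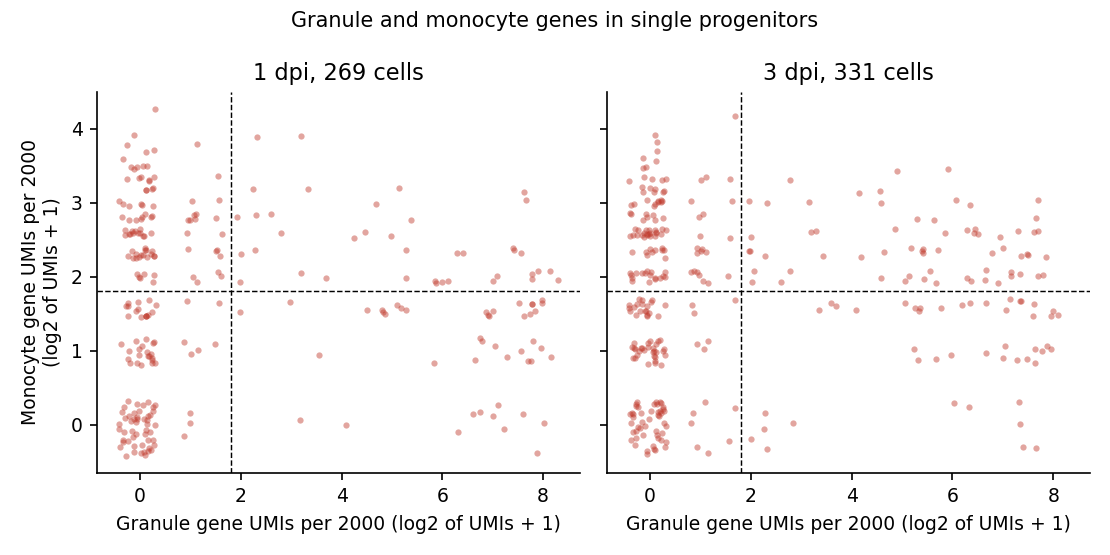
Each point is a progenitor thinned to 2000 UMIs, with its UMIs of the 6 granule genes (x axis) and the 6 monocyte genes (y axis) on a log2 scale after adding 1, shifted at random by up to 0.25 UMIs. The dashed lines lie between 2 and 3 UMIs, the threshold, and the granule genes reach 312 UMIs in a cell against 18 for the monocyte genes.

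Cells with neither set of genes had the highest levels of Cd34 and Sox4, and at 1 dpi also of several other lineages. Cd34 was at 257 CPM in them at 1 dpi (237 to 279, exact Poisson interval for counting error), against 98.3 CPM in cells with monocyte genes only, 45.2 CPM with granule genes only and 8.52 CPM with both, and at 3 dpi it was at 223, 93.6 and 40.4 CPM in the first 3, with 17 UMIs in the 65 cells with both. Sox4, a factor of immature cells, was at 293, 103, 23.4 and 2.13 CPM at 1 dpi in the same order. Gata2, a factor of stem cells, mast cells and basophils, was at 164 CPM at 1 dpi and 59.7 CPM at 3 dpi in cells with neither and at most 3.60 CPM in the others. Of the cells with neither, 30 at 1 dpi and 19 at 3 dpi held at least 10 UMIs of basophil and mast cell or eosinophil genes. Without them, an alternative chosen after seeing the data, Gata2 was at 32.1 CPM (24.1 to 41.9) and 21.2 CPM (14.5 to 29.9), Cd34 at 253 and 224 CPM and Sox4 at 267 and 200 CPM, so most Gata2 UMIs lay in those cells and most of Cd34 and Sox4 did not. At 1 dpi macrophage genes were at 210 CPM with neither against 20.1 to 34.8 CPM in the other ranges, endothelial genes at 57.1 against 6.39 to 15.2 CPM, megakaryocyte genes at 73.4 against 1.67 to 6.39 CPM and B cell progenitor genes at 120 against 20.2 to 50.2 CPM. At 3 dpi the last 3 lists were highest with neither as well and macrophage genes were highest with both, at 627 CPM. Mesenchymal genes at 1 dpi were at 717 CPM with neither, 610 with monocyte genes only, 463 with granule genes only and 115 with both. In the same order they were at 5290, 1586, 6971 and 1129 CPM at 3 dpi, highest with granule genes only. The part of cells or RNA of these other lineages, stroma included, in the Cd34 level was not tested. The nucleolar list was at 5127 CPM with neither, 4000 CPM with monocyte genes only, 1579 CPM with granule genes only and 1760 CPM with both at 1 dpi.

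Irf8 and Cebpe, which did not enter the split, marked opposite sides of it. Irf8 was at 340 CPM in cells with monocyte genes only at 1 dpi (318 to 364) and 342 CPM at 3 dpi, against 24.3 and 48.2 CPM in cells with granule genes only. Cebpe was at 106 and 78.0 CPM in the former and at 456 (418 to 496) and 462 CPM in the latter. Cells with both sets resembled those with granule genes only in both factors, with Cebpe at 394 and 416 CPM and Irf8 at 51.1 and 22.4 CPM. Mature neutrophil genes at 1 dpi were at 139680 CPM with granule genes only, 97466 with both and 1545 with neither. Immature neutrophils held them at 193050 CPM. Specific and gelatinase granule genes were at 66479 CPM with granule genes only and 110288 CPM in immature neutrophils. Part of the cells named progenitors thus lay near immature neutrophils in these lists. Klf4 was at 205 and 154 CPM in cells with monocyte genes only, 129 and 126 CPM with neither and 38.5 and 90.2 CPM with granule genes only. The 4 monocyte transcription factors together were at 1039 and 984 CPM with monocyte genes only and at 1048 and 677 CPM with neither, so at 1 dpi the list did not set these ranges apart.

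The rule genes and Mki67 had these levels in the ranges. In cells with granule genes only, Mpo was at 2656 and 2422 CPM at 1 dpi and 3 dpi and Ctsg at 588 and 896 CPM, against 6555 and 5576 CPM of Mpo and 2400 and 2852 CPM of Ctsg in cells with monocyte genes only. Elane was at 4401 and 5400 CPM with granule genes only and at 3049 and 4309 CPM in cells with neither, values of genes that chose the cells, given as a description. Mki67, a gene of dividing cells, was at 571 and 554 CPM with granule genes only, 541 and 509 CPM with both, 334 and 311 CPM with monocyte genes only and 255 and 260 CPM with neither. These are sums over cells of 1 library each, compared with no test.

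**Figure D4:**
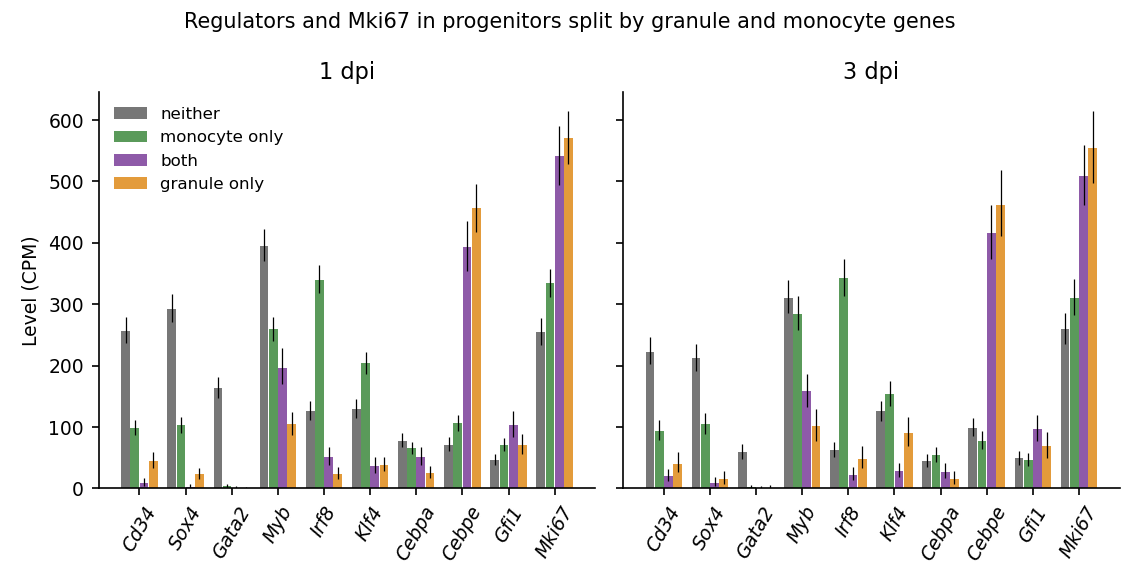
Levels in CPM (y axis) of 9 regulators and progenitor genes and of Mki67 (x axis) in progenitors with neither gene set, monocyte genes only, both, or granule genes only, at 1 dpi and 3 dpi, with exact Poisson intervals as error bars. Cd34, Sox4 and Gata2 (mostly from cells with basophil, mast cell or eosinophil genes) are highest with neither, Irf8 with monocyte genes only, and Cebpe and Mki67 with granule genes in both libraries.

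A few cells carried genes of other granulocyte lines. Basophil and mast cell genes reached 10 UMIs in 29 progenitors at 1 dpi and 16 at 3 dpi, and these held 97.7% and 93.4% of the list's UMIs in all progenitors. Their leading gene was Prss34, a basophil protease, with 4169 and 702 UMIs, and the second Mcpt8 with 2476 and 423. Elane was low in them, at 602 and 981 CPM, while Mpo stood at 3118 and 4089 CPM and Gata2 at 548 and 399 CPM. Eosinophil genes reached 10 UMIs in 6 cells at 1 dpi and 8 at 3 dpi, led by Prg2, the major basic protein, with 319 and 2346 UMIs, in cells with 2041 and 804 CPM of Elane. The rule genes summed to 5585 and 7663 CPM in the basophil-type cells and to 12861 and 5943 CPM in the eosinophil-type cells. Of the eosinophil-type cells 2 of 6 and 2 of 8, and of the basophil-type cells 4 of 29 and 1 of 16, were among the highest doublet scores.

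Between 1 dpi and 3 dpi few genes of the progenitors differed by 2-fold. Over 9938 genes with at least 50 UMIs the median log2 ratio was -0.01, 4.35% of genes were at least 2-fold higher at 3 dpi and 0.654% at least 2-fold lower, without a test. DNA replication genes summed to 2452 and 2233 CPM, a ratio of 0.911 (0.889 to 0.933, counting error only), mitosis genes to 2435 and 2251 CPM (0.924), nucleolar genes to 3645 and 3842 CPM (1.05) and progenitor markers to 1983 and 1864 CPM (0.940). The ratio of the progenitor markers was 1.03 without cells holding 10 UMIs of another lineage, which left 219 and 257 cells. None of the 18 replication, 20 mitosis or 12 nucleolar genes passed 2-fold in either direction. Folding genes of the endoplasmic reticulum were at 5165 and 5863 CPM (1.13).

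Mature neutrophil genes were at a lower level at 3 dpi. Mature neutrophil genes summed to 40594 and 26792 CPM (0.660), mostly S100a9 and S100a8, with 1 of 9 genes past 2-fold, and the specific and gelatinase granule list to 16945 and 14452 CPM (0.853), with 4 of 10 genes past 2-fold and a ratio of 1.02 at a rule threshold of 20 UMIs. Ltf was at 521 and 149 CPM, while Camp was at 8853 and 8971 CPM. Monocyte regulators were at 803 and 632 CPM (0.788) and homing receptors at 886 and 684 CPM (0.772). Mature neutrophil genes were also lower at 3 dpi in immature neutrophils, at 193050 and 117359 CPM.

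The lists past 2-fold were those of other lineages and MHC class II, while single granule genes such as Ltf were past it too. Basophil and mast cell genes were at 1135 and 487 CPM (0.429), and among the 5 genes with the lowest ratio were Prss34 (605 and 149 CPM) and Mcpt8 (372 and 105 CPM), beside Gzma, Ly6d and Slfn4. Within the basophil and mast cell list 3 genes were past 2-fold lower and 2 past 2-fold higher, the mast cell genes Cma1 (1.16 and 86.9 CPM) and Tpsb2 (0.435 and 37.9 CPM), and 5 cells held 50.3% of the list at 1 dpi and 82.3% at 3 dpi. The eosinophil list was at 73.1 and 587 CPM (8.04), with 94.7% of its UMIs at 3 dpi in 5 cells. Hbb-bs, a haemoglobin gene, was at 2.03 and 363 CPM, Hba-a1 at 1.88 and 105 CPM, and 1 cell held 97.1% of the erythroid list at 3 dpi. Without the highest doublet scores the erythroid ratio of 17.4 became 0.564, and macrophage genes (1.66) and MHC class II genes (1.76) were no longer past 2-fold either, which left 4 of the 7 lists past it. MHC class II genes were at 208 and 472 CPM (2.27), with 48.1% of them in 5 cells at 3 dpi, and in monocytes the list was at 5028 and 7805 CPM. Macrophage genes were at 88.1 and 244 CPM (2.77), with 66.6% in 5 cells and 85.9% from Apoe at 3 dpi. Skeletal muscle genes were at 2.75 and 67.8 CPM (24.6), from 19 UMIs at 1 dpi and 320 at 3 dpi, of which 5 cells held 94.7%.

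Mesenchymal genes were at 552 CPM at 1 dpi and 3604 CPM at 3 dpi in progenitors (6.53), with none of the 6 genes at 0 in either library and Col3a1 as the most abundant at 3 dpi. Over the same interval the list went from 1785 to 7706 CPM in immature neutrophils, from 6024 to 10378 CPM in mature neutrophils and from 1819 to 3800 CPM in monocytes. Postn, a matrix protein gene of injured stroma and among the highest ratios in progenitors together with Cilp and Thbs4, was at 4.49 and 258 CPM in progenitors and at 26.3 and 713 CPM in mature neutrophils. Cilp, at 2.90 and 105 CPM in progenitors, was at 93.6 and 57.2 CPM in mature neutrophils, and Thbs4, at 1.74 and 49.6 CPM, was at 8.41 and 155 CPM there. At 3 dpi 74.9% of progenitors held a UMI of Col3a1 and 69 of 339 held at least 10 UMIs of the list. The part of free RNA and of doublets in these ratios was not tested. Without the highest doublet scores the mesenchymal ratio was 17.2.

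**Figure D5:**
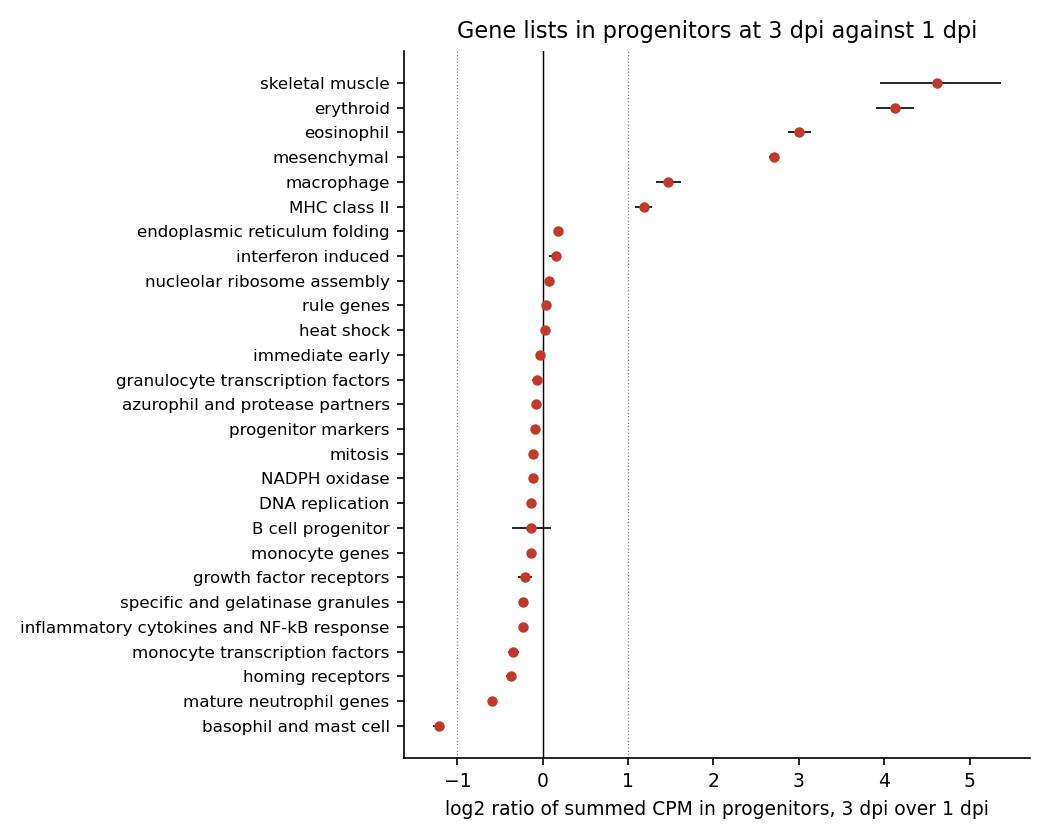
Log2 ratio of the summed CPM of gene lists in progenitors at 3 dpi over 1 dpi (x axis) for the lists with at least 3 genes of 50 UMIs (y axis), with 95% intervals for counting error. The lists of cycling, ribosome assembly and granulocyte regulators lie within 2-fold (dotted lines), and those outside it are lists of other lineages and MHC class II.

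Nkg7, a granule membrane protein gene counted with T and NK cells, was found in most progenitors. It was at 629, 518 and 490 CPM in Uninjured, 1 dpi and 3 dpi, with a UMI in 87.7% of progenitors at 1 dpi and 80.8% at 3 dpi. The other 5 genes of the T and NK list together had 54 UMIs at 1 dpi and 52 at 3 dpi, against 3576 and 2312 of Nkg7. Nkg7 was higher in progenitors than in mature neutrophils (log2 fold 4.95 ± 0.84, adjusted p = 0.000455 by edgeR) and than in immature neutrophils (4.18 ± 0.70, adjusted p = 0.000722 by edgeR). Against monocytes, at 55.4, 71.6, 307 and 152 CPM from Uninjured to 7 dpi, Nkg7 did not pass (1.76 ± 0.70, adjusted p = 0.0672 by edgeR).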

How the data were processed

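The authors demultiplexed, aligned (STAR) and counted reads with Cell Ranger 5.0.0, and the submitters' processing notes name mm10 and Seurat 3.1.1. The deposited values are whole-number UMI counts per gene and barcode with no scaling per cell. The protocol names a down-sampling of reads, and whether it preceded the deposited counts is not given in the sources used here. Progenitors and other classes were gated on these counts, and CPM is UMIs of a gene over all UMIs of the class and library. Sums from at least 10 cells were tested with edgeR 4.0.16 (TMM, filterByExpr, library as a block, Benjamini-Hochberg), with DESeq2 1.42.0 as an alternative, in R 4.3.3. In simulated sums for the comparison with mature neutrophils (9581 genes) 72.0% of 4-fold and 7.00% of 2-fold changes were recovered, and 0.101% of unchanged genes were called. Counting intervals covered 96.5% of simulated changed ratios (3 dpi over 1 dpi, 9938 genes). These counts were drawn from the Poisson model that the intervals assume, so the coverage checks the calculation and not the spread between cells. Thinning was at random. Doublets were kept, and scanpy 1.11.5 (Scrublet) gave the scores for an alternative. Python 3.11.15, scipy 1.17.1 and matplotlib 3.10.9 were used. Named genes were the 32 lists, per test the 10 widest called folds in each direction with the same direction in each library and at least 100 UMIs in the higher class, the 5 widest time ratios each way, and genes within 200 kb of Elane or Ctsg. Members and lists were chosen with earlier results of these data known.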

Additional observations from a re-analysis of the deposited data

Results flagged for a closer look

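Barcodes with more than 10% mitochondrial UMIs entered no comparison, and some of them met the rule of 10 UMIs of Mpo, Elane, Prtn3 and Ctsg. There were 17 of 869 such barcodes at 1 dpi (1.96%, 1.14 to 3.11%) and 15 of 1042 at 3 dpi (1.44%, 0.808 to 2.36%). In Uninjured it was 0 of 204, which allows a share of up to 1.47% by the limit of 3 counts and 1.79% by the Clopper-Pearson interval. At 7 dpi it was 0 of 726, which allows up to 0.413% and 0.507%. The barcodes that met the rule had median UMI counts of 3935 at 1 dpi and 4063 at 3 dpi. No group had more than 1 library, so no library could be set against others of its group.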

How the results depend on the processing

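Library was a block in each test. With no replicate block, the genes higher and lower in progenitors numbered 1229 and 1251 against mature neutrophils, 810 and 765 against monocytes and 407 and 338 against immature neutrophils. Leaving out 1 library at a time gave 295 to 2346 higher and 649 to 2543 lower against mature neutrophils, 189 to 1926 and 463 to 1690 against monocytes and 62 to 1749 and 170 to 1932 against immature neutrophils, the lowest without 1 dpi or 3 dpi, which leave 1 progenitor sum that is assumed to vary like the other classes. Without 1 dpi 75 of 159, 60 of 149 and 76 of 118 named calls were lost in the same order of classes, and without 3 dpi 62, 69 and 73. Without the highest doublet scores 954 genes were higher than in monocytes and 961 than in immature neutrophils, Cd3e against mature neutrophils stood at 3.50 and Hbb-bs against immature neutrophils at -1.13 on the log2 scale, both reversed. With only the classes compared in the fit, 3072 genes were lower than in immature neutrophils. DESeq2 called 2000 and 2313, 1406 and 1578, and 1441 and 1734 genes.

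Of the list ratios between 3 dpi and 1 dpi, 4 lists in place of 7 were past 2-fold without the highest doublet scores, where the immediate early ratio was 1.03 and the erythroid ratio 0.564. At a rule threshold of 20 UMIs the rule genes were at 0.992 and the specific granule list at 1.02. Leaving out cells with 3 UMIs of any list of another lineage, with Nkg7 counted, kept only 29 and 31 cells. The T and NK list, which holds Nkg7, reached 3 UMIs in 204 progenitors at 1 dpi and 215 at 3 dpi, and the mesenchymal list in 125 and 236. This alternative removes cells by the lists whose ratios are read for eosinophil, erythroid, macrophage and skeletal muscle genes. There the ratios on the other side of 1 were 1.29 (progenitor markers), 0.830 (interferon), 1.13 (immediate early), 0.0336 (eosinophil), 0.657 (erythroid), 0.829 (macrophage) and 0.985 (skeletal muscle). Without cells holding 10 such UMIs, Nkg7 not counted (219 and 257 cells), an alternative chosen after seeing the data, they were 1.03 (progenitor markers), 0.943 (interferon), 1.04 (inflammatory), 1.03 (immediate early) and 0.722 (erythroid).

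Thinned to 1000 UMIs, 74.7% and 75.1% of progenitors held a mitosis UMI at 1 dpi and 3 dpi, and 72.5% and 71.9% held at least 2 at 2000 UMIs. Over the 1 dpi and 3 dpi libraries, 34.5% of progenitors had neither gene set and 17.3% both, against 39.7% and 12.7% at 1000 UMIs with a threshold of 2. A threshold of 6 gave 55.0% with neither, 25.5% with granule genes only, 16.2% with monocyte genes only and 3.33% with both. The causes of these shifts were not tested. Of the named genes, 4339 alternatives kept direction and side of the threshold, 705 lost the call and 2 reversed. Each time point had 1 library, and the intervals of its levels cover counting error only.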
